A study of Mus musculus with 20 samples.

Results

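RNA levels in trigeminal ganglia and nucleus accumbens were compared in the vehicle-treated mice of the study, 10 of its 20 RNA-seq libraries. All libraries of the vehicle group were taken, 5 from trigeminal ganglia (TG) and 5 from nucleus accumbens (NAc), and the 10 libraries of morphine-treated mice were left aside. By the labels, each of the 5 mice gave both tissues, so every mouse was its own control. The mice were male C57BL/6J, a common inbred strain, 9 to 12 weeks old. They received vehicle, and tissue was taken 24 h after the last injection. Both tissues of a mouse therefore shared genotype, sex, treatment and time, and the comparison holds no drug effect. The study set out to compare morphine with vehicle, so the difference between tissues is the background on which that comparison rests.

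Sensory neurons with their cell bodies in the TG serve the face, the cornea, the teeth and the meninges. Each cell body is wrapped by satellite glia, its axon is myelinated or bundled by Schwann cells, and the ganglion lies outside the blood-brain barrier in a sheath of connective tissue. The NAc is the ventral part of the striatum. Most of its neurons are medium spiny neurons, inhibitory cells that use GABA, carry dopamine receptors and make the opioid peptides enkephalin or dynorphin, and they sit among astrocytes, oligodendrocytes and microglia. Both samples were whole tissue. In such bulk samples, fewer cells of a type and less RNA per cell cannot be told apart.

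Vehicle libraries held 61285916 to 76110288 counts in TG and 52402037 to 62729282 in NAc. Levels are given in CPM, counts relative to the TMM-scaled library size, as mean ± SD over 5 mice. Fold changes are log2 of TG over NAc with their standard error, and a gene is called at an adjusted p under 0.05 in edgeR's quasi-likelihood test with the mouse as a block. The tissue labels were checked against markers. The summed level of 10 sensory neuron markers ran from 3629 to 3914 CPM in TG and from 19.2 to 23.5 CPM in NAc, and that of 8 medium spiny neuron markers from 112 to 125 CPM in TG and from 2089.9 to 6989 CPM in NAc. A marker of sensory neurons reached a median of 0.219% to 0.451% of its TG level in NAc, and a marker of medium spiny neurons reached 2.92% to 3.46% of its NAc level in TG.

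Several libraries stood apart in markers of neighbouring tissue. Pituitary markers summed to 572 and 967 CPM in the TG of mice 4 and 5 against 18.1 to 37.5 CPM in the other 3. Muscle markers summed to 127 CPM in the TG of mouse 1 and 11.2 CPM in that of mouse 5 against a median of 2.04 CPM in TG. In NAc, markers of cortical neurons summed to 827, 468 and 174 CPM in mice 3, 4 and 1 against 11.7 and 12.9 CPM in mice 2 and 5. Markers of septum and hypothalamus summed to 33.8 CPM in the NAc of mouse 2 against a median of 11.7 CPM, and the NAc of the same mouse had the lowest summed level of medium spiny neuron markers. The part of these neighbouring tissues in the results was not tested. Each mouse was left out in turn, and where this ended the call of a gene described here, that is given beside it.

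**Figure D1:**
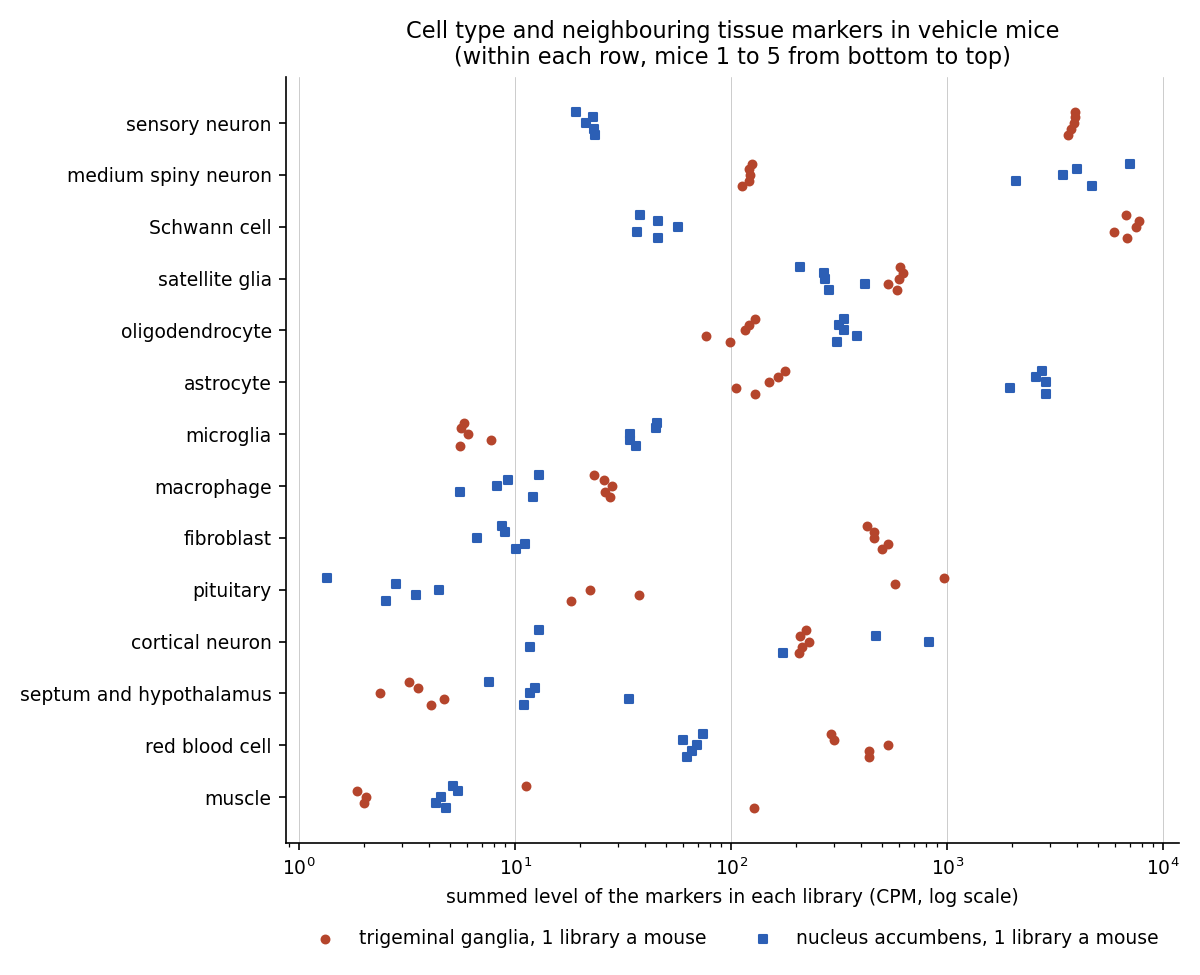
Summed CPM (log scale) of 14 sets of cell type and neighbouring tissue markers in each vehicle library, red circles for TG and blue squares for NAc, with mice 1 to 5 from bottom to top in a row. Sensory neuron, Schwann cell and fibroblast markers separated the tissues in one direction and medium spiny neuron, astrocyte and oligodendrocyte markers in the other, while the pituitary, muscle and cortical rows spread widely within a tissue.

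Of 30374 features tested, 9587 (31.6%) were higher in TG and 9817 (32.3%) were lower, so 63.9% were called. Against a null of a 2-fold difference, 3820 (12.6%) were higher and 3808 (12.5%) were lower. The tissue levels of 17717 features (58.3%) did not overlap between the 5 libraries of each tissue. Of those called beyond 2-fold, 907 were more than 16-fold higher in TG and 1025 more than 16-fold lower. The median log2 fold change over all features was -0.05, and 0.03 over the 19809 named genes tested. With library size alone as the scaling it moved to -0.19, so a small fold change is read against that shift. With a background this high, a list of genes is of interest for its sizes and for the members that go against the rest more than for the count of calls.

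Among well-expressed genes, transcription factors, channels and enzymes that define the 2 kinds of neuron had some of the largest differences beyond 2-fold. Leading genes were those with the largest fold changes among genes called beyond 2-fold, with the same direction in every mouse. Their mean was at least 50 CPM in the higher tissue. A gap between the tissues therefore follows from how they were chosen. Isl2 (gene 104360, chromosome 9, 55538677 to 55547667), a LIM homeodomain factor of sensory and motor neurons, stood at 157, 159.9, 164, 159.7 and 165 CPM in TG and 0.459, 0.450, 0.719, 0.534 and 0.238 CPM in NAc. Every TG library was far above every NAc library, with a log2 fold change of 8.41 ± 0.22 and an adjusted p of 3.66e-06. Leading genes higher in TG also included Tmem233, Mrgprd, Prph, Slc36a2, Scn10a, Acpp, Pirt, Pou4f1 and Avil, with log2 fold changes between 8.11 and 8.49. Acpp encodes the transmembrane acid phosphatase of non-peptidergic nociceptors, and Pirt a membrane partner of Trpv1.

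In the opposite direction, Slc32a1 (gene 22348, chromosome 2, 158607260 to 158615747), the transporter that loads GABA and glycine into vesicles, stood at 0.220, 0.316, 0.176, 0.223 and 0.647 CPM in TG and 236, 272, 174, 216 and 256 CPM in NAc. Its log2 fold change was -9.54 ± 0.25 with an adjusted p of 3.52e-06, and no library overlapped. Gad1 and Gad2, the enzymes that make GABA, averaged 1.04 CPM in TG and 653 in NAc and 1.60 CPM in TG and 808 in NAc and had log2 fold changes of -9.32 ± 0.29 and -8.97 ± 0.19. Slc12a5 (gene 57138, chromosome 2, 164960846 to 164999731), the chloride extruder that lets GABA inhibit mature central neurons, averaged 1.40 ± 0.446 CPM in TG and 357 ± 47.5 in NAc, a log2 fold change of -8.02 ± 0.19. Leading genes lower in TG also included Lamp5, Ankrd63, Hpcal4, Pdyn, Otof, Drd1 and Pak6, with log2 fold changes between -10.14 and -7.75.

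**Figure D2:**
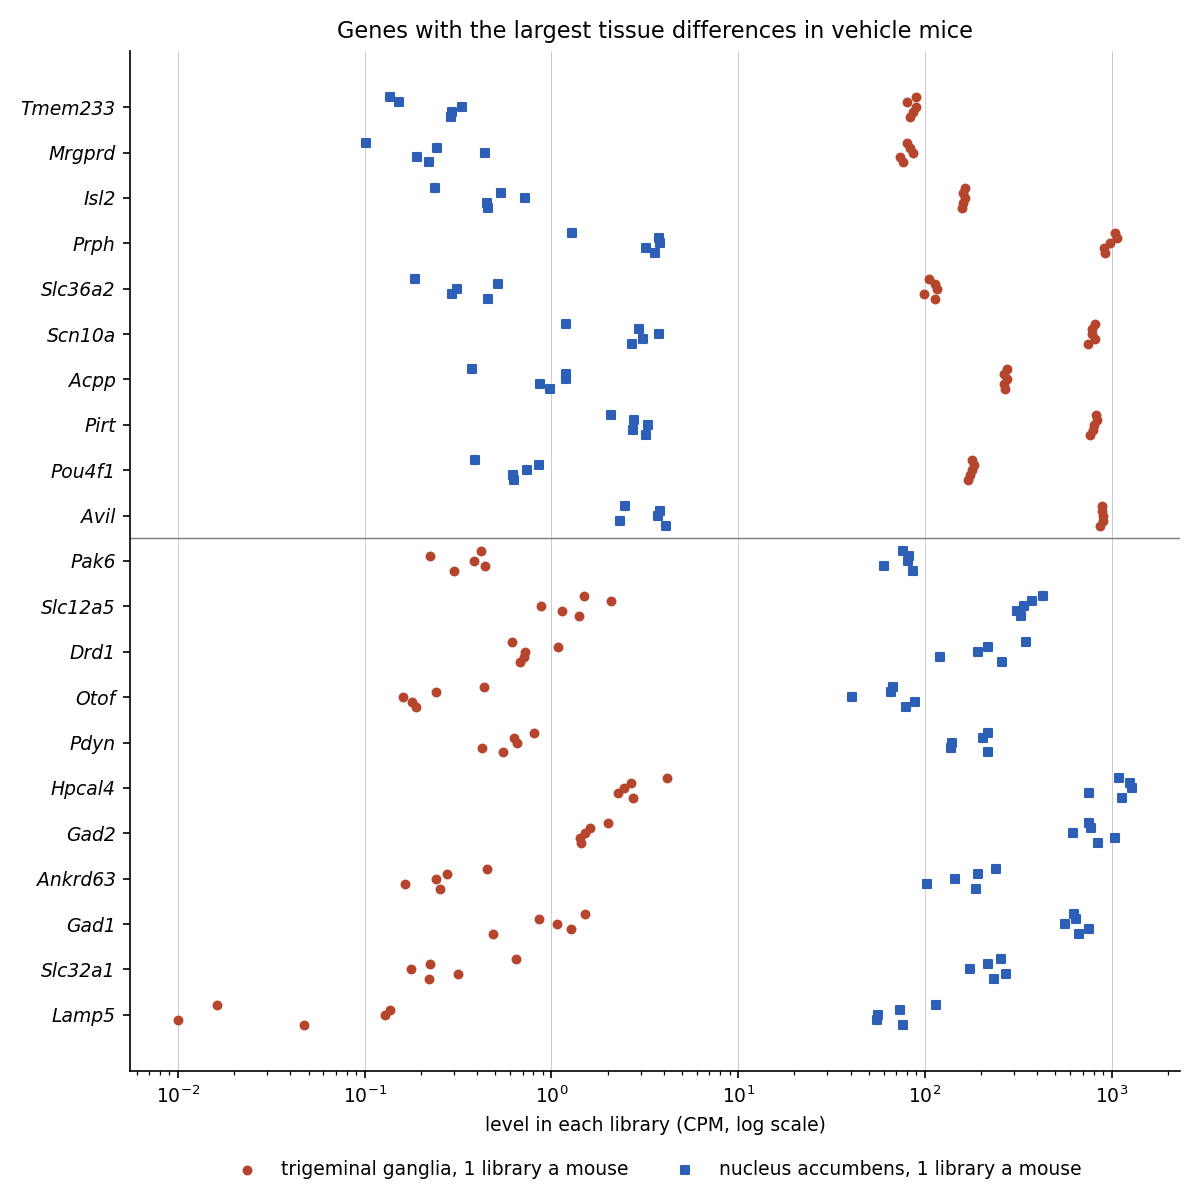
CPM (log scale) in each vehicle library of 10 named genes among those with the largest log2 fold change higher in TG (upper block) and 11 among those with the largest lower in TG (lower block), red circles for TG and blue squares for NAc. The 21 genes were chosen for a large difference with the same direction in every mouse, so the gap between tissues follows from the choice. A value of 0 is drawn at 0.01 CPM.

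Genes of nociceptors and touch neurons were nearly all higher in TG. Of 23 tested, 19 were higher in TG, 3 were lower and 1 was not called, with a median log2 fold change of 7.56. Piezo2, the mechanosensitive channel of touch, stood at 432, 492, 408, 409 and 406 CPM in TG and 2.24, 2.46, 2.65, 3.11 and 1.21 CPM in NAc. Its tissues did not overlap, and the log2 fold change was 7.56 ± 0.24 with an adjusted p of 5.84e-06. Among receptors for heat, cold and irritants, Trpv1 averaged 63.3 CPM in TG and 0.299 in NAc, Trpm8 148 CPM in TG and 0.722 in NAc and Trpa1 42.6 CPM in TG and 0.169 in NAc, with log2 fold changes of 7.74, 7.74 and 8.09. The itch receptors Mrgpra3 and Mrgprx1 were low in TG at 5.38 and 7.76 CPM and lower still in NAc, at 0.00340 and 0.0170 CPM.

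Not every gene used to name a sensory neuron class separated the tissues in that direction. Sst, the somatostatin precursor that marks an itch class in the ganglion and interneurons in the striatum, averaged 2.79 ± 0.234 CPM in TG and 110.1 ± 20.6 in NAc, a log2 fold change of -5.28 ± 0.12. Tac1, the precursor of substance P, averaged 147 ± 8.53 CPM in TG and 193 ± 49.6 in NAc and was not called, with a log2 fold change of -0.36 ± 0.15 and an adjusted p of 0.0818. It is made by peptidergic nociceptors and also by medium spiny neurons. The neurotrophin receptor genes Ntrk2 and Ntrk3 were also lower in TG, by log2 fold changes of -1.13 and -0.31.

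Factors that specify sensory neurons were at or near the floor in NAc. Of 16 tested, 13 were higher in TG, 0 were lower and 3 were not called, with a median of 7.39. Pou4f1, the POU factor of early sensory neurons, stood at 170.4, 174, 179, 183 and 179 CPM in TG and 0.629, 0.624, 0.737, 0.854 and 0.391 CPM in NAc, and Tlx3, a homeobox factor of trigeminal nociceptors, averaged 38.7 CPM in TG and 0.121 in NAc. No library of one tissue reached the range of the other for either gene, and their log2 fold changes were 8.11 ± 0.17 and 8.33 ± 0.27. Runx1 and Runx3, which split nociceptors from proprioceptive and touch neurons, were higher at 5.47 and 7.04 on the log2 scale. The 3 genes not called were Neurod1, Etv1 and Eya1, and Eya1 and Etv1 were called lower when library size alone was used.

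Of 28 genes of the 4 Hox clusters, which pattern the hindbrain and trunk, 21 were below the filter in both tissues. Of the 7 tested, 5 were higher in TG, 1 was lower and 1 was not called. The 5 higher genes all belong to the Hoxd cluster. Hoxd1 averaged 32.3 ± 1.64 CPM in TG and 0.229 ± 0.0302 in NAc with a log2 fold change of 7.12 ± 0.12, while Hoxd8, Hoxd4, Hoxd3 and Hoxd9 averaged 4.88, 1.95, 1.94 and 1.06 CPM in TG against at most 0.111 CPM in NAc. Hoxd1 is known from mouse nociceptors, where it shapes their axons.

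Receptors and ligands of the neurotrophin and GDNF families split between the tissues. Of 17 tested, 7 were higher in TG, 6 were lower and 4 were not called, where 31.6% of all features were higher and 32.3% lower. Ret, the signalling receptor of the GDNF family, averaged 985 ± 32.6 CPM in TG and 11.5 ± 6.84 in NAc, a log2 fold change of 6.59 ± 0.36, and Gfra3, the coreceptor for artemin, averaged 36.2 CPM in TG and 0.157 in NAc. Ngfr, the low-affinity neurotrophin receptor of sensory neurons and Schwann cells, averaged 512 CPM in TG and 6.18 in NAc. The ligands were low throughout. Gdnf averaged 0.422 ± 0.0766 CPM in TG and 4.22 ± 1.35 in NAc and Artn 0.148 ± 0.0183 CPM in TG and 0.668 ± 0.262 in NAc, with log2 fold changes of -3.28 ± 0.29 and -2.09 ± 0.33. Bdnf, made by a class of sensory neurons, was higher in TG at 20.3 ± 1.68 CPM in TG and 6.82 ± 6.56 in NAc, a call that was lost without mouse 1, 2 or 4 (adjusted p 0.103, 0.0997 and 0.0749).

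Genes of medium spiny neurons were nearly all lower in TG. Of 21 tested, 0 were higher in TG, 19 were lower and 2 were not called, with a median log2 fold change of -4.99. Ppp1r1b (gene 19049, chromosome 11, 98348406 to 98357796), which encodes DARPP-32, the phosphatase inhibitor that relays dopamine signals, averaged 8.56 ± 0.975 CPM in TG and 869 ± 367 in NAc. Mice differed widely in NAc, with a summed level of 4649 to 14137 CPM against 1609.8 to 1669.6 CPM in TG. Drd1, the D1 dopamine receptor of the direct pathway, stood at 0.677, 0.715, 0.722, 1.08 and 0.615 CPM in TG and 258, 120.3, 193, 217 and 349 CPM in NAc. The lowest NAc library was far above all of TG, with a log2 fold change of -8.15 ± 0.30 and an adjusted p of 9.82e-06. The 2 members not called were Tac1 and Scn4b, a sodium channel subunit that averaged 795 ± 18.4 CPM in TG and 727 ± 382 in NAc.

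Among forebrain and striatal transcription factors, 20 of 22 tested were lower in TG, with a median of -4.71. Six3 and Dlx6, factors of the ventral forebrain, averaged 47.8 and 19.8 CPM in NAc and 0.159 and 0.0716 CPM in TG, and Six3 had a log2 fold change of -8.39 ± 0.54. Tbr1 and Neurod6 also belong to the list but mark cortical neurons, and both are part of the summed cortical markers given above. The 2 members higher in TG were Isl1 and Ebf1, at 2.78 ± 0.16 and 3.59 ± 0.19. Isl1 serves both cell types during development.

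Receptors for opioids, cannabinoids and dopamine were lower in TG or not called, and none was higher. Of 10 tested, 0 were higher in TG, 7 were lower and 3 were not called. Oprm1, the mu receptor through which morphine acts, was low in both tissues in the deposited transcripts matched to the gene. It stood at 1.196, 1.10, 0.930, 1.28 and 1.33 CPM in TG and 1.75, 1.25, 1.07, 1.36 and 1.26 CPM in NAc. The libraries of both tissues overlapped, and the log2 fold change of -0.19 ± 0.17 was not called, with an adjusted p of 0.368. Oprl1, the nociceptin receptor, averaged 31.3 ± 1.65 CPM in TG and 33.1 ± 15.9 in NAc and was not called either. Oprk1, the kappa receptor, was lower in TG at 7.56 ± 0.905 CPM in TG and 58.5 ± 8.90 in NAc, and Oprd1, the delta receptor, at 25.9 ± 0.786 CPM in TG and 49.5 ± 13.6 in NAc, with log2 fold changes of -2.94 ± 0.14 and -0.89 ± 0.17. Cnr1, the cannabinoid receptor of neurons, was lower at -0.97 ± 0.08 on the log2 scale. Drd3 and Drd5 averaged 7.67 and 3.31 CPM in NAc and 0.379 and 0.221 CPM in TG.

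The transmitter systems differed in kind. The 18 transporters tested for loading or clearing transmitters held 3 higher in TG, 11 lower and 4 not called, with a median of -2.90. Slc17a6 (gene 140919, chromosome 7, 51621830 to 51671126), the vesicular glutamate transporter VGLUT2, stood at 247, 269.8, 257, 261 and 265 CPM in TG and 7.32, 51.6, 13.8, 12.96 and 2.63 CPM in NAc. TG was above NAc in each mouse without overlap, and the log2 fold change was 4.49 ± 0.66 with an adjusted p of 0.00181. Its paralog Slc17a7, VGLUT1, stood at 206, 212, 229, 206 and 221 CPM in TG and 149.99, 2.88, 696, 394 and 9.55 CPM in NAc. It was even in TG, varied widely between mice in NAc and was not called. Slc17a7 is itself a cortical marker and makes up most of their summed level in NAc of mice 1, 3 and 4.

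Clearance of transmitter showed the opposite bias. Slc1a2 (gene 20511, chromosome 2, 102658239 to 102790784), the main glutamate transporter of astrocytes, stood at 15.2, 14.3, 19.7, 20.9 and 25.8 CPM in TG and 2687, 1767, 2693, 2416 and 2602 CPM in NAc. The tissues did not overlap, and the log2 fold change was -7.002 ± 0.15, with an adjusted p of 2.36e-06. Slc1a3, which satellite glia also carry, was lower in TG at 33.2 ± 3.25 CPM in TG and 612 ± 46.7 in NAc. The GABA transporter Slc6a11 was lower at -4.10, while Slc6a13, a GABA transporter of meninges and other non-neuronal cells, was higher by 1.98 ± 0.14. Markers of cholinergic interneurons were low in NAc and near 0 in TG. Chat, the enzyme that makes acetylcholine, averaged 0.142 ± 0.109 CPM in TG and 16.6 ± 5.26 in NAc, and the vesicular transporter Slc18a3 averaged 0.0473 ± 0.0620 CPM in TG and 5.35 ± 1.68 in NAc.

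Neuropeptide genes divided along the same lines, with 6 higher in TG, 13 lower and 8 not called of 27 tested. Calca (gene 12310, chromosome 7, 114625981 to 114636910), which encodes calcitonin and the pain peptide CGRP, stood at 433, 432, 438, 538 and 505 CPM in TG and 1.78, 1.97, 2.49, 2.29 and 1.02 CPM in NAc. The tissues did not overlap, with a log2 fold change of 7.97 ± 0.25 and an adjusted p of 6.26e-06. Calcb, the second CGRP gene, averaged 62.8 CPM in TG and 0.427 in NAc, and Nppb, a peptide of itch neurons, 2.42 CPM in TG and 0.0236 in NAc. Pdyn, the dynorphin precursor, averaged 0.616 ± 0.141 CPM in TG and 183 ± 41.4 in NAc, and Npy, which marks striatal interneurons, 0.160 ± 0.0315 CPM in TG and 38.0 ± 7.66 in NAc. Penk, the enkephalin precursor, averaged 0.169 ± 0.133 CPM in TG and 45.7 ± 13.9 in NAc. Gene totals hold only the transcripts that were matched to the gene, and unmatched transcripts stayed unnamed. Pomc was not called, and its TG level was high in the mice with high pituitary markers, at 60.9 and 57.3 CPM in mice 4 and 5 against 1.54 to 4.33 CPM in the others.

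Voltage-gated sodium channels form the action potential, and the tissues used different members of the family. Of 14 alpha and beta subunits tested, 7 were higher in TG, 4 were lower and 3 were not called. Scn11a, which encodes Nav1.9 of nociceptors, stood at 389, 399.9, 424, 417 and 405 CPM in TG and 1.61, 2.79, 1.44, 1.94 and 0.883 CPM in NAc. Its log2 fold change was 7.93 ± 0.28 with an adjusted p of 8.39e-06, without overlap. Scn9a, which encodes Nav1.7, averaged 375 ± 15.1 CPM in TG and 19.9 ± 6.43 in NAc, and Scn7a, a sodium-sensing relative known from glia and sensory ganglia, averaged 539.5 ± 17.1 CPM in TG and 3.47 ± 0.821 in NAc. Scn4a, the channel of skeletal muscle, stood at 9.47, 9.08, 9.94, 10.5 and 10.3 CPM in TG and 0.119, 0.0866, 0.0921, 0.168 and 0.0340 CPM in NAc and was higher as well, also in the mice with low muscle markers. In the other direction, Scn2a, the Nav1.2 channel of central axons, stood at 10.5, 10.5, 5.66, 10.2 and 7.85 CPM in TG and 123, 118, 125, 144 and 122 CPM in NAc. NAc was above TG in each of the 5 mice, with a log2 fold change of -3.85 ± 0.17 and an adjusted p of 1.60e-05.

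The channels shared by both tissues differed less. Scn8a averaged 311 ± 95.3 CPM in TG and 214 ± 28.9 in NAc and was not called, with an adjusted p of 0.0873. Scn1a was higher in TG by 0.69 ± 0.06 on the log2 scale. Of the beta subunits, Scn2b and Scn3b were lower at -2.66 ± 0.06 and -1.16 ± 0.05, and Scn4b was not called. Read per length, the order of the alpha subunits in TG was Scn10a at 336 ± 10.6, Scn7a at 209.7 ± 8.90, Scn11a at 199 ± 6.37, Scn9a at 132 ± 6.53 and Scn8a at 79.2 ± 25.1 TPM, a level per transcript length. In NAc it was led by Scn8a at 63.6 ± 7.90, Scn1a at 50.6 ± 9.86 and Scn2a at 48.7 ± 3.66. The levels of neighbours in these orders overlapped within 1 SD for Scn7a and Scn11a in TG and for both neighbouring pairs in NAc.

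**Figure D3:**
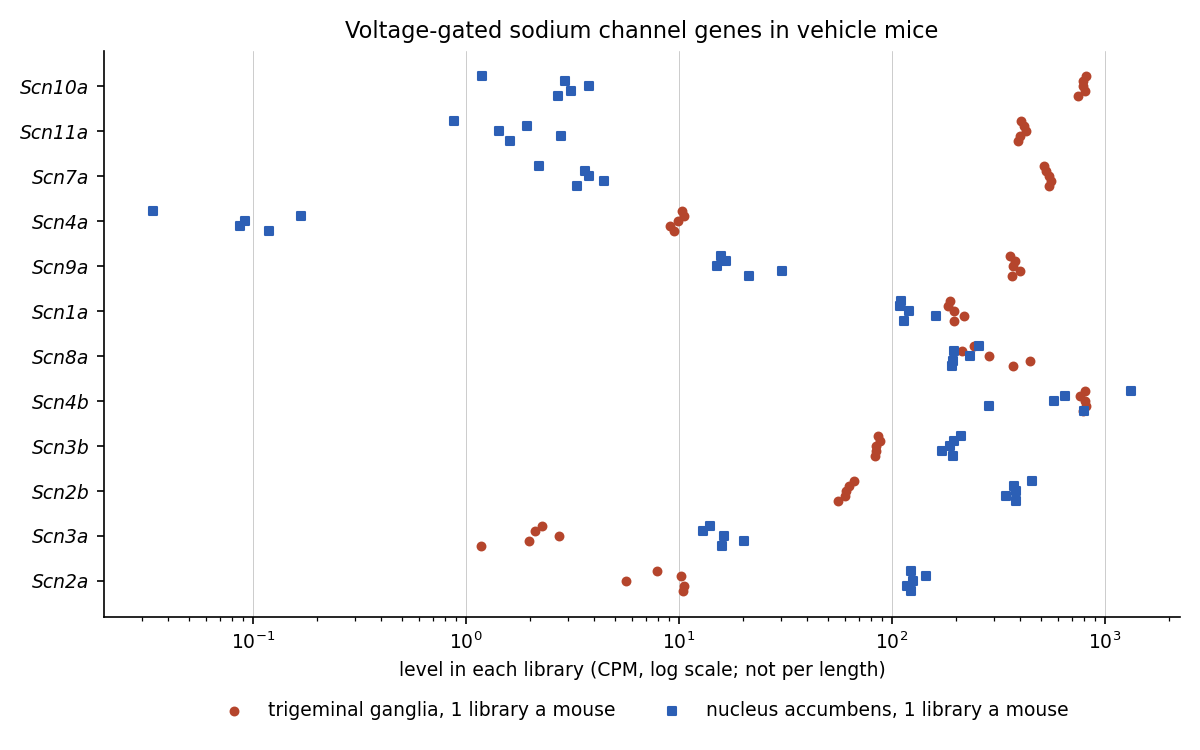
CPM (log scale, not per length) of 12 voltage-gated sodium channel genes in each vehicle library, red circles for TG and blue squares for NAc, ordered by log2 fold change. The upper 5 genes sit apart with TG far above NAc, Scn8a and Scn4b lie close together, and Scn2b, Scn3a and Scn2a sit apart with NAc above TG.

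Potassium channels were split almost evenly. Of 33 voltage-gated genes tested, 15 were higher in TG, 14 were lower and 4 were not called, with a median log2 fold change of -0.04. Over all features the split was also even, with 31.6% higher and 32.3% lower. Kcns3, a silent subunit that modifies other channels, averaged 129 ± 3.72 CPM in TG and 3.80 ± 0.994 in NAc, a log2 fold change of 5.12 ± 0.18. In the opposite direction, Kcnd2, the A-type channel of dendrites, averaged 3.08 ± 0.269 CPM in TG and 183 ± 40.5 in NAc, a log2 fold change of -5.87 ± 0.17, while its paralog Kcnd1 was higher by 3.62 ± 0.07. Kcnq5, a subunit of the M-current, was lower at -3.86 ± 0.18. Kcnh4, a channel known from the striatum, averaged 0.263 ± 0.0705 CPM in TG and 37.9 ± 14.9 in NAc.

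Background potassium and pacemaker channels leaned to TG, with 9 higher in TG, 3 lower and 3 not called of 15 tested. Kcnk18, which encodes the TRESK channel found on nociceptors, averaged 26.5 ± 1.04 CPM in TG and 0.106 ± 0.0399 in NAc, a log2 fold change of 7.96 ± 0.22. Calcium channels leaned to NAc. Of 21 subunits tested, 3 were higher in TG, 16 were lower and 2 were not called, with a median of -1.25. The AMPA receptor partners Cacng3 and Cacng8 and the R-type channel Cacna1e were lower at -5.77 ± 0.14, -4.76 ± 0.15 and -4.42 ± 0.45, while Cacna1b, the N-type channel at pain synapses, averaged 168 ± 8.26 CPM in TG and 160.2 ± 7.92 in NAc and was not called. The T-type channels Cacna1g, Cacna1h and Cacna1i were lower at -3.57, -0.79 and -3.44.

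Ligand-gated channels of the glutamate and GABA families were mostly lower in TG. Of 18 AMPA, kainate, NMDA and delta receptor genes tested, 2 were higher in TG, 13 were lower and 3 were not called, with a median of -2.07. Gria2, the AMPA subunit that sets calcium permeability, averaged 66.2 ± 5.62 CPM in TG and 883 ± 114 in NAc, and Grin2c 1.23 ± 0.239 CPM in TG and 49.5 ± 8.26 in NAc. The 2 genes higher in TG both encode kainate subunits. Grik1, known from nociceptors, stood at 172, 174, 188, 185 and 183 CPM in TG and 10.3, 30.6, 12.4, 10.9 and 5.16 CPM in NAc. All TG libraries were above all NAc libraries, with a log2 fold change of 3.94 ± 0.40 and an adjusted p of 3.90e-04. Grik4 was higher by 1.498 ± 0.16. Gria4 averaged 118 ± 4.96 CPM in TG and 115 ± 17.4 in NAc and was not called.

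Metabotropic receptors followed, with 1 higher in TG, 4 lower and 2 not called of 7 tested, and Grm5, the main receptor of this kind on striatal neurons, averaged 2.81 ± 0.307 CPM in TG and 437 ± 98.4 in NAc. Of 19 GABA-A and glycine receptor genes, 1 was higher in TG, 14 were lower and 4 were not called, with a median of -1.502. The extrasynaptic subunit Gabrd and the subunit Gabra4 of striatal neurons were lower at -5.41 ± 0.21 and -4.94 ± 0.46. Gabrg1 was not called at 82.9 ± 5.41 CPM in TG and 74.9 ± 34.4 in NAc, and Gabra2 was lower at only -0.69 ± 0.05. Glrb, the glycine receptor subunit that binds gephyrin, was the gene higher in TG, by 0.38 ± 0.06.

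Other fast receptor families were higher in TG. Of 11 ATP-gated and acid-sensing channels, 9 were higher in TG, 1 was lower and 1 was not called. P2rx3, the ATP receptor of nociceptors, averaged 197 ± 9.18 CPM in TG and 2.44 ± 0.415 in NAc, and Asic3, the acid sensor of sensory nerves, 187 ± 10.4 CPM in TG and 2.48 ± 0.531 in NAc. Asic4 was the member lower in TG, at 1.13 ± 0.302 CPM in TG and 64.6 ± 21.8 in NAc. Of 13 nicotinic receptor genes, 9 were higher in TG, 2 were lower and 2 were not called. Chrna6 and Chrnb3, subunits that assemble together, averaged 36.1 ± 0.977 CPM in TG and 0.259 ± 0.141 in NAc and 17.9 ± 0.679 CPM in TG and 0.531 ± 0.458 in NAc. Chrna4 was lower at -3.40 ± 0.25.

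Serotonin receptors lay on both sides. Of 12 tested, 6 were higher in TG, 5 were lower and 1 was not called, and with library size alone 4 were higher and 5 lower. All features also lay on both sides, with 31.6% higher and 32.3% lower. The ion channel subunits Htr3a and Htr3b averaged 118 ± 5.08 CPM in TG and 2.88 ± 0.879 in NAc and 15.99 ± 0.828 CPM in TG and 0.0942 ± 0.0203 in NAc, with log2 fold changes of 5.40 ± 0.21 and 7.38 ± 0.14. Htr1d, one of the receptors that triptans act on, was higher in TG at 52.6 ± 2.31 CPM in TG and 12.3 ± 3.84 in NAc, and Htr1f was higher by 0.69 ± 0.21, a call that was lost without mouse 1, 3 or 4 (adjusted p 0.0553, 0.0846 and 0.0524). Htr1a and Htr1b were lower at -1.13 ± 0.36 and -0.81 ± 0.21. Htr2c stood at 0.677, 0.481, 0.994, 0.805 and 0.566 CPM in TG and 117, 114, 118, 126 and 99.0 CPM in NAc. It was the member with the largest difference toward NAc, at -7.37 ± 0.16 on the log2 scale. The call for Htr1a was lost without mouse 1, 2, 3 or 4 (adjusted p 0.0851, 0.0961, 0.107 and 0.101) and that for Htr1b without mouse 1 (0.0566), so that 3 to 5 receptors were lower and 4 to 6 higher with a mouse left out.

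Genes for transmitter release were present in both tissues, and members of a family changed sides. Of 28 tested, 6 were higher in TG, 16 were lower and 6 were not called. Syt2, the fast calcium sensor of synaptotagmins, stood at 614, 625, 646, 599 and 618 CPM in TG and 23.0, 56.9, 31.4, 31.0 and 20.9 CPM in NAc. Syt1, the sensor of most forebrain synapses, stood at 228, 234, 236, 236 and 229 CPM in TG and 1105, 1078, 1531, 1266 and 1017 CPM in NAc. Neither gene overlapped between tissues, and the log2 fold changes were 4.34 ± 0.24 and -2.35 ± 0.09. The same held for Vamp1 at 3.67 ± 0.30 and Vamp2 at -0.88 ± 0.10, and for Cplx1 at 1.66 ± 0.08 and Cplx2 at -2.31 ± 0.14. Sv2c was higher by 1.83 ± 0.12 and Sv2a was lower at -2.71 ± 0.12. The SNARE gene Snap25 averaged 1507 ± 46.8 CPM in TG and 1343 ± 266 in NAc and was not called.

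Postsynaptic genes were less even. Of 22 tested, 4 were higher in TG and 18 were lower, with a median of -2.27. Nrgn, the calmodulin-binding protein of spines, averaged 2.24 ± 0.384 CPM in TG and 255 ± 101 in NAc, and Camk2a, the kinase of synaptic plasticity, 118 ± 4.72 CPM in TG and 1604 ± 368 in NAc. The 4 members higher in TG were the kinase paralogs Camk2g and Camk2d and the scaffolds Homer2 and Homer3. Camk2g averaged 369 ± 8.82 CPM in TG and 98.6 ± 33.0 in NAc, a log2 fold change of 1.97 ± 0.19. The 4 kinase genes thus divided, with Camk2a and Camk2b lower at -3.73 ± 0.17 and -3.59 ± 0.14.

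Cytoskeletal genes were among the highest in the ganglia. Of 27 tested, 19 were higher in TG, 4 were lower and 4 were not called. Their summed level ran from 32041 to 33362 CPM in TG and from 7332 to 8845 CPM in NAc. Nefm, the medium neurofilament, stood at 5231, 5253, 5338, 4890.4 and 5112 CPM in TG and 127, 168, 159.8, 126 and 99.6 CPM in NAc. No library of NAc approached TG, and the log2 fold change was 5.27 ± 0.13 with an adjusted p of 3.05e-06. Prph, the filament of peripheral neurons, Nefh and Nefl were higher by 8.34 ± 0.33, 5.83 ± 0.24 and 4.61 ± 0.14. Ina, the filament partner in central axons, was lower at -2.73 ± 0.15, as were the dendritic protein gene Map2 at -2.02 ± 0.05 and Stmn4 at -2.18 ± 0.05. Map1b and Tubb3 were higher by 2.82 and 2.81, while Ank3 and Sptb, which build the axon initial segment and membrane skeleton, were not called.

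Sncg, a synuclein of sensory nerve endings, stood at 995, 970.2, 1009, 1049 and 1059 CPM in TG and 4.86, 8.38, 4.75, 4.83 and 2.77 CPM in NAc. The tissues did not overlap, and the log2 fold change was 7.70 ± 0.30. Its paralog Sncb averaged 66.9 ± 5.64 CPM in TG and 106 ± 35.5 in NAc and was not called, with an adjusted p of 0.0886.

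Signalling genes downstream of receptors were divided. Of 28 G protein and RGS genes, 14 were higher in TG, 13 were lower and 1 was not called, and with library size alone 13 were higher and 13 lower. All features divided in a like way, with 31.6% higher and 32.3% lower. Gng7, the gamma subunit that pairs with the striatal Golf protein, averaged 28.3 ± 2.42 CPM in TG and 972 ± 334 in NAc, and Rgs9 and Rgs14 were lower at -4.57 ± 0.30 and -4.66 ± 0.17. Gna14 averaged 59.0 ± 2.26 CPM in TG and 0.984 ± 0.181 in NAc, a log2 fold change of 5.91 ± 0.13, the largest toward TG in the list. Of 24 adenylyl cyclases and phosphodiesterases, 5 were higher in TG, 14 were lower and 5 were not called. Pde1b, a calmodulin-dependent phosphodiesterase, averaged 7.32 ± 1.15 CPM in TG and 636 ± 260.1 in NAc, and Pde10a and Adcy5, the striatal pair that breaks down and makes cyclic AMP, 35.6 ± 1.77 CPM in TG and 908 ± 449 in NAc and 45.6 ± 2.95 CPM in TG and 870.4 ± 314 in NAc. Pde11a was higher in TG at 72.1 ± 3.65 CPM in TG and 9.77 ± 6.91 in NAc.

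Myelin is made by Schwann cells in the ganglion and by oligodendrocytes in the brain, and the lists separated by what each cell alone makes. Of 20 Schwann cell genes, 18 were higher in TG and 2 were lower, with a median log2 fold change of 5.56. Pmp22, a protein of peripheral myelin whose dosage is altered in inherited neuropathy, averaged 2475 ± 216 CPM in TG and 22.4 ± 1.97 in NAc, and Prx, which stabilises the peripheral sheath, 1024 ± 79.6 CPM in TG and 4.72 ± 0.936 in NAc. Dhh, the hedgehog signal of Schwann cells, and Cldn19, a tight junction gene, averaged 120.1 CPM in TG and 0.553 in NAc and 209.9 CPM in TG and 0.975 in NAc. Mag, a myelin gene that oligodendrocytes also make, was among those lower in TG, with a log2 fold change of -1.03 ± 0.15.

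Of 20 oligodendrocyte genes, 7 were higher in TG and 13 were lower, with a median of -1.30. Mbp, which both cell types use, stood at 3645, 3071, 3920.5, 4062 and 3895 CPM in TG and 2185, 2431, 2283, 2246 and 2446 CPM in NAc. TG was above NAc with a log2 fold change of 0.68 ± 0.08 and an adjusted p of 8.35e-04. Sox10, the factor shared by both lineages, and the galactolipid enzyme Ugt8a were higher by 2.06 ± 0.09 and 1.72 ± 0.10. Genes of central myelin alone went the other way. Opalin averaged 0.209 ± 0.124 CPM in TG and 22.8 ± 1.52 in NAc, Mog 7.19 ± 3.002 CPM in TG and 57.6 ± 3.54 in NAc and Olig2, the oligodendrocyte lineage factor, 0.737 ± 0.389 CPM in TG and 24.6 ± 4.44 in NAc. Precursor genes were also lower in TG, with 1 higher in TG, 10 lower and 1 not called of 12 tested.

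Glia that surround neurons differed in their makeup. Of 16 satellite glia genes, 7 were higher in TG, 8 were lower and 1 was not called, with a median of -0.74. Several genes that name satellite glia in the ganglion, among them Slc1a3, Glul and Gja1, are also made by astrocytes. They were lower in TG at -4.21 ± 0.11, -1.09 ± 0.05 and -2.13 ± 0.09. Fabp7, a fatty acid-binding protein of satellite glia, stood at 204, 179.5, 198, 202 and 198 CPM in TG and 15.4, 19.2, 16.4, 15.5 and 12.9 CPM in NAc. TG was higher in every mouse, with a log2 fold change of 3.64 ± 0.11 and an adjusted p of 5.64e-06. Kcnj10, the potassium channel of both cell types, averaged 130.4 ± 16.3 CPM in TG and 188 ± 49.8 in NAc and was not called.

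Of 20 astrocyte genes, 2 were higher in TG, 17 were lower and 1 was not called, with a median of -2.42. Slc7a10 and Fgfr3 were lower in TG at -4.69 ± 0.33 and -4.04 ± 0.18, and Aqp4, the water channel of astrocyte end feet, at -1.17 ± 0.09. The 2 members higher in TG were S100b, which Schwann cells make, at 678 ± 25.95 CPM in TG and 64.7 ± 8.17 in NAc, and Gfap at 73.8 ± 18.4 CPM in TG and 41.0 ± 7.39 in NAc. The call for Gfap was lost without mouse 3 (adjusted p 0.057) or mouse 4 (adjusted p 0.0617).

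Immune genes separated by the kind of cell. Of 18 microglia genes, 1 was higher in TG, 12 were lower and 5 were not called, with a median of -1.76. Siglech, Selplg and Gpr34 were lower in TG at -3.85 ± 0.16, -3.49 ± 0.13 and -3.47 ± 0.17, and Tmem119 averaged 2.43 ± 1.28 CPM in TG and 16.8 ± 2.27 in NAc. Sall1, a factor of microglia, had no count in any TG library and averaged 3.88 CPM in NAc. P2ry12 was low in the matched transcripts, at 2.61 CPM in TG and 2.07 in NAc, and was not called. Genes of macrophages outside the brain tissue proper went the other way, with 10 higher in TG, 0 lower and 3 not called of 13 tested. Lyz2, the lysozyme of macrophages and neutrophils, averaged 38.2 ± 16.8 CPM in TG and 2.92 ± 0.625 in NAc, and Lyve1 3.39 ± 0.368 CPM in TG and 0.332 ± 0.0388 in NAc.

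The class II antigen presentation genes held a group of 5 higher in TG. Cd74, the chaperone of class II molecules, stood at 47.2, 43.8, 61.5, 56.6 and 60.2 CPM in TG and 1.43, 1.45, 0.866, 1.05 and 0.832 CPM in NAc. TG was higher in each mouse without overlap, with a log2 fold change of 5.58 ± 0.26 and an adjusted p of 2.05e-05. H2-Aa and H2-Eb1 were higher by 5.99 ± 0.32 and 5.84 ± 0.23. Ciita, the factor that switches these genes on, averaged 1.22 ± 0.631 CPM in TG and 0.965 ± 0.272 in NAc and was not called, and H2-DMb2 and H2-Oa were lower. Of 11 lymphocyte and granulocyte genes, 10 were higher in TG and 1 was lower. The mast cell protease genes Tpsb2 and Mcpt4 averaged 1.69 and 1.73 CPM in TG and 0.00340 and 0.00737 in NAc. Cd4, the member lower in TG, averaged 0.801 ± 0.113 CPM in TG and 39.1 ± 21.9 in NAc. A further 10 members of that list were too low to be tested.

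Complement genes were mostly higher in TG, with 11 higher in TG, 4 lower and 3 not called of 18 tested. Cd55 and Cd59a, which protect cells from complement, averaged 319 ± 3.71 CPM in TG and 3.03 ± 0.763 in NAc and 108 ± 3.17 CPM in TG and 4.87 ± 1.19 in NAc, and Serping1, the inhibitor of its first step, 89.3 ± 2.81 CPM in TG and 3.03 ± 0.335 in NAc. The 3 chains of C1q, made by microglia in the brain, were lower at -1.01, -0.997 and -1.10. Those calls were lost without mouse 1, 3, 4 or 5, when 1 or 2 of the 18 genes were lower. Red blood cell genes were higher in TG, at 219 ± 60.0 CPM in TG and 35.3 ± 3.32 in NAc for the beta globin Hbb-bs. Red blood cell markers summed to 291 to 533 CPM in TG and 59.8 to 74.3 CPM in NAc, and the part of blood in the immune results was not tested.

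Endothelial genes differed by type. Pecam1, an adhesion molecule of all endothelium, averaged 16.5 ± 3.02 CPM in TG and 15.9 ± 0.668 in NAc and was not called, with an adjusted p of 0.821. Cldn5, the main claudin of brain endothelium, was lower at -0.19 ± 0.04. Of 19 blood-brain barrier genes, 5 were higher in TG, 11 were lower and 3 were not called, with a median of -0.32. Beyond 2-fold, 4 of them were higher and 7 were lower, and the highest log2 fold change was 3.18. Their summed level was higher in TG, at 3350 to 3527 CPM against 1269 to 1495 CPM in NAc. The barrier genes named here are all from the lower side. Of 17 peripheral endothelial genes, 10 were higher in TG, 3 were lower and 4 were not called. The barrier transporter Slco1c1 averaged 3.64 ± 0.556 CPM in TG and 30.2 ± 3.84 in NAc and Slc38a5 0.492 ± 0.0784 CPM in TG and 2.51 ± 0.446 in NAc. The barrier factors Foxf2 and Foxq1 were lower in TG at -1.92 and -1.87. Aqp1, a water channel that both peripheral endothelium and sensory neurons carry, averaged 156 ± 6.52 CPM in TG and 0.722 ± 0.200 in NAc. Of 15 mural cell genes tested, 5 were higher in TG, 4 were lower and 6 were not called. These shares lie near those of all features, 31.6% higher and 32.3% lower. With library size alone 5 were higher and 6 lower.

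Connective tissue genes were mostly higher in the ganglion. Of 20 fibroblast and perineurium genes, 16 were higher in TG, 2 were lower and 2 were not called, with a median of 2.99. Ogn, a small proteoglycan, stood at 433, 387, 411, 435 and 384 CPM in TG and 5.18, 3.05, 2.93, 3.14 and 2.82 CPM in NAc. The tissues did not overlap, with a log2 fold change of 6.93 ± 0.15 and an adjusted p of 2.50e-06. Mfap5 and Lum were higher by 8.08 ± 0.29 and 6.15 ± 0.15. Of 21 collagen genes, 16 were higher in TG, 2 were lower and 3 were not called. Col5a3, which Schwann cells secrete, averaged 226 ± 9.94 CPM in TG and 4.62 ± 1.28 in NAc, and Col3a1 92.6 ± 6.25 CPM in TG and 2.37 ± 0.250 in NAc. Col6a1 was lower in TG at 25.01 ± 6.39 CPM in TG and 303 ± 71.6 in NAc, while Col6a3, which assembles with it, was higher at 43.3 ± 4.24 CPM in TG and 3.39 ± 0.698 in NAc and Col6a2 was not called.

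The basement membrane that surrounds Schwann cells and vessels followed, with 15 higher in TG, 1 lower and 4 not called of 20 tested. Hspg2, the proteoglycan perlecan, averaged 286 ± 30.3 CPM in TG and 9.33 ± 0.582 in NAc and Nid1, the linker nidogen, 161 ± 11.8 CPM in TG and 10.3 ± 1.09 in NAc. The matrix of the brain showed the opposite. Of 14 genes of perineuronal nets and brain matrix, 3 were higher in TG, 9 were lower and 2 were not called. Ncan, Tnr and Vcan were lower in TG at -3.51 ± 0.10, -3.05 ± 0.04 and -2.69 ± 0.07. Hapln4 and Hapln1, link proteins of the nets, were higher by 2.00 ± 0.40 and 0.85 ± 0.18.

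Guidance genes were split evenly. Of 60 tested, 25 were higher in TG, 25 were lower and 10 were not called, and with library size alone 23 were higher and 27 lower. All features were split evenly as well, with 31.6% higher and 32.3% lower. Sema3b averaged 279 ± 28.0 CPM in TG and 1.99 ± 0.380 in NAc, a log2 fold change of 7.14 ± 0.12, and Sema3a 1.09 ± 0.387 CPM in TG and 22.4 ± 2.98 in NAc, a change of -4.40 ± 0.29. Dcc, the netrin receptor, and Efna3 were lower at -4.25 ± 0.09 and -3.99 ± 0.48. Sema3g and Sema4c were higher by 3.25 ± 0.07 and 3.24 ± 0.09.

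Every one of the 23 tested genes of cholesterol and fatty acid synthesis was higher in TG, 12 of them beyond 2-fold, with a median log2 fold change of 1.23. Under library size alone 21 were higher and none was lower. The pathway supplies the lipid of myelin and membranes. Srebf2, the factor that controls the pathway, was the member with the smallest difference, 0.21 ± 0.04, together with Fasn at 0.33 ± 0.08 and Scd2 at 0.61 ± 0.09. Schwann cell markers, which summed to 5952 to 7696 CPM in TG and to 36.7 to 56.4 CPM in NAc, moved with these genes, and their part was not tested.

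Hmgcs1, the synthase that makes HMG-CoA early in the pathway, stood at 812, 769.5, 826, 840.1 and 777 CPM in TG and 207, 209.7, 330.1, 268 and 183 CPM in NAc. TG was above NAc in each mouse, with a log2 fold change of 1.78 ± 0.12 and an adjusted p of 8.28e-05. Its promoter is shown because it was the single member with the core of a sterol regulatory element in its window. The letters TCACNCCAC were searched on both strands of RefSeq windows from 250 bases before to 50 bases after each start in GRCm38.p6. They were present in 1 of 15 members with a window, in 1 of the 20 windows of these members and in 408 of all 32851 windows (1.24%). The stretch lies at chr13:119690188-119690247 on the plus strand, with the match in capitals. A match is a description of letters, not of a bound site.
Hmgcs1: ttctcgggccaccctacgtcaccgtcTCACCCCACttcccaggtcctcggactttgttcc

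Energy metabolism differed less. Of 24 nuclear genes of oxidative phosphorylation, 17 were higher in TG, 2 were lower and 5 were not called, with a median of only 0.30. Under library size alone 14 were higher and 5 lower. Ndufa4 averaged 224 ± 7.16 CPM in TG and 131 ± 7.14 in NAc, while Cox6a2, an isoform of muscle and of some interneurons, was lower at 0.562 ± 0.754 CPM in TG and 2.42 ± 0.602 in NAc. Of 21 genes of glycolysis and lactate transport, 11 were higher in TG, 4 were lower and 6 were not called. Slc16a1, the lactate transporter of Schwann cells, oligodendrocytes and endothelium, was higher by 1.34 ± 0.06, and Aldoc, the aldolase of astrocytes, lower at -1.86 ± 0.07. Ribosomal protein genes moved little. Of 29, 7 were higher in TG, 12 were lower and 10 were not called, and apart from Rplp0 at 1.12 ± 0.05 and Rpl22 at 0.70 ± 0.08 the log2 fold changes lay between -0.49 and 0.31.

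Clock genes were mostly lower in TG. Of 20 tested, 1 was higher in TG, 18 were lower and 1 was not called, with a median of -1.07. Npas2, the partner of Bmal1 in forebrain, stood at 3.68, 2.74, 3.66, 3.46 and 3.33 CPM in TG and 80.7, 36.0, 69.8, 75.0 and 81.4 CPM in NAc. All NAc libraries were above all TG libraries, with a log2 fold change of -4.30 ± 0.15 and an adjusted p of 8.19e-06. Rorb and Hlf were lower at -5.18 ± 0.30 and -3.33 ± 0.17. The repressors were lower by smaller amounts, among them Per2 at -1.85 ± 0.13 and Cry1 at -1.38 ± 0.09. Clock, at -0.18 ± 0.04, differed least among those called. Tissue was collected at a single time, so a level and a phase of the daily cycle cannot be told apart.

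The clock's activators bind an E-box, CACGTG. The palindrome was present in 5 of 17 clock genes with a RefSeq window. It was in 6 of the 23 windows of these genes and in 2349 of all 32851 windows (7.15%). Promoters of 3 clock genes lower in TG are shown with that box in capitals, each on its own gene's strand in GRCm38.p6. They lie at chr10:85185084-85185140 (minus strand), chr11:69098757-69098813 (plus strand) and chr15:81802520-81802576 (plus strand).
Cry1: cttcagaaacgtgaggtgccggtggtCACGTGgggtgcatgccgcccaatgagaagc
Per1: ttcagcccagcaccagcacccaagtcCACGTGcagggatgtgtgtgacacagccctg
Tef: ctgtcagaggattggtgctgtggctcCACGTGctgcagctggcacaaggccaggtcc

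Activity-regulated genes were mostly lower in TG, with 2 higher in TG, 12 lower and 4 not called of 18 tested. Egr1, an immediate early gene, stood at 17.5, 11.9, 15.6, 10.1 and 14.5 CPM in TG and 225, 111, 375, 259 and 262 CPM in NAc. NAc libraries varied several-fold but none reached the TG range, and the log2 fold change was -4.07 ± 0.26 with an adjusted p of 6.60e-05. Npas4 and Egr4 were lower at -5.67 ± 0.65 and -6.68 ± 0.28. The 2 genes higher in TG were Jun, a factor of axon injury and Schwann cells, at 152 ± 7.53 CPM in TG and 36.8 ± 8.10 in NAc, and Egr2, the factor of peripheral myelination, at 43.7 ± 4.56 CPM in TG and 11.1 ± 5.03 in NAc.

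Reference genes used to scale quantitative PCR were not all level. Of 20 tested, 11 were higher in TG, 6 were lower and 3 were not called, and with library size alone 8 were higher and 9 lower. Gapdh, Actb and Ipo8 were not called, with log2 fold changes of -0.01 ± 0.04, -0.11 ± 0.08 and -0.07 ± 0.06. B2m, the light chain of class I molecules, averaged 198 ± 22.5 CPM in TG and 44.2 ± 2.39 in NAc, and Tubb5 and Ppia were higher by 1.39 ± 0.09 and 0.81 ± 0.05. Eef1a1 and Tbp were lower at -0.45 ± 0.05 and -0.62 ± 0.07.

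**Figure D4:**
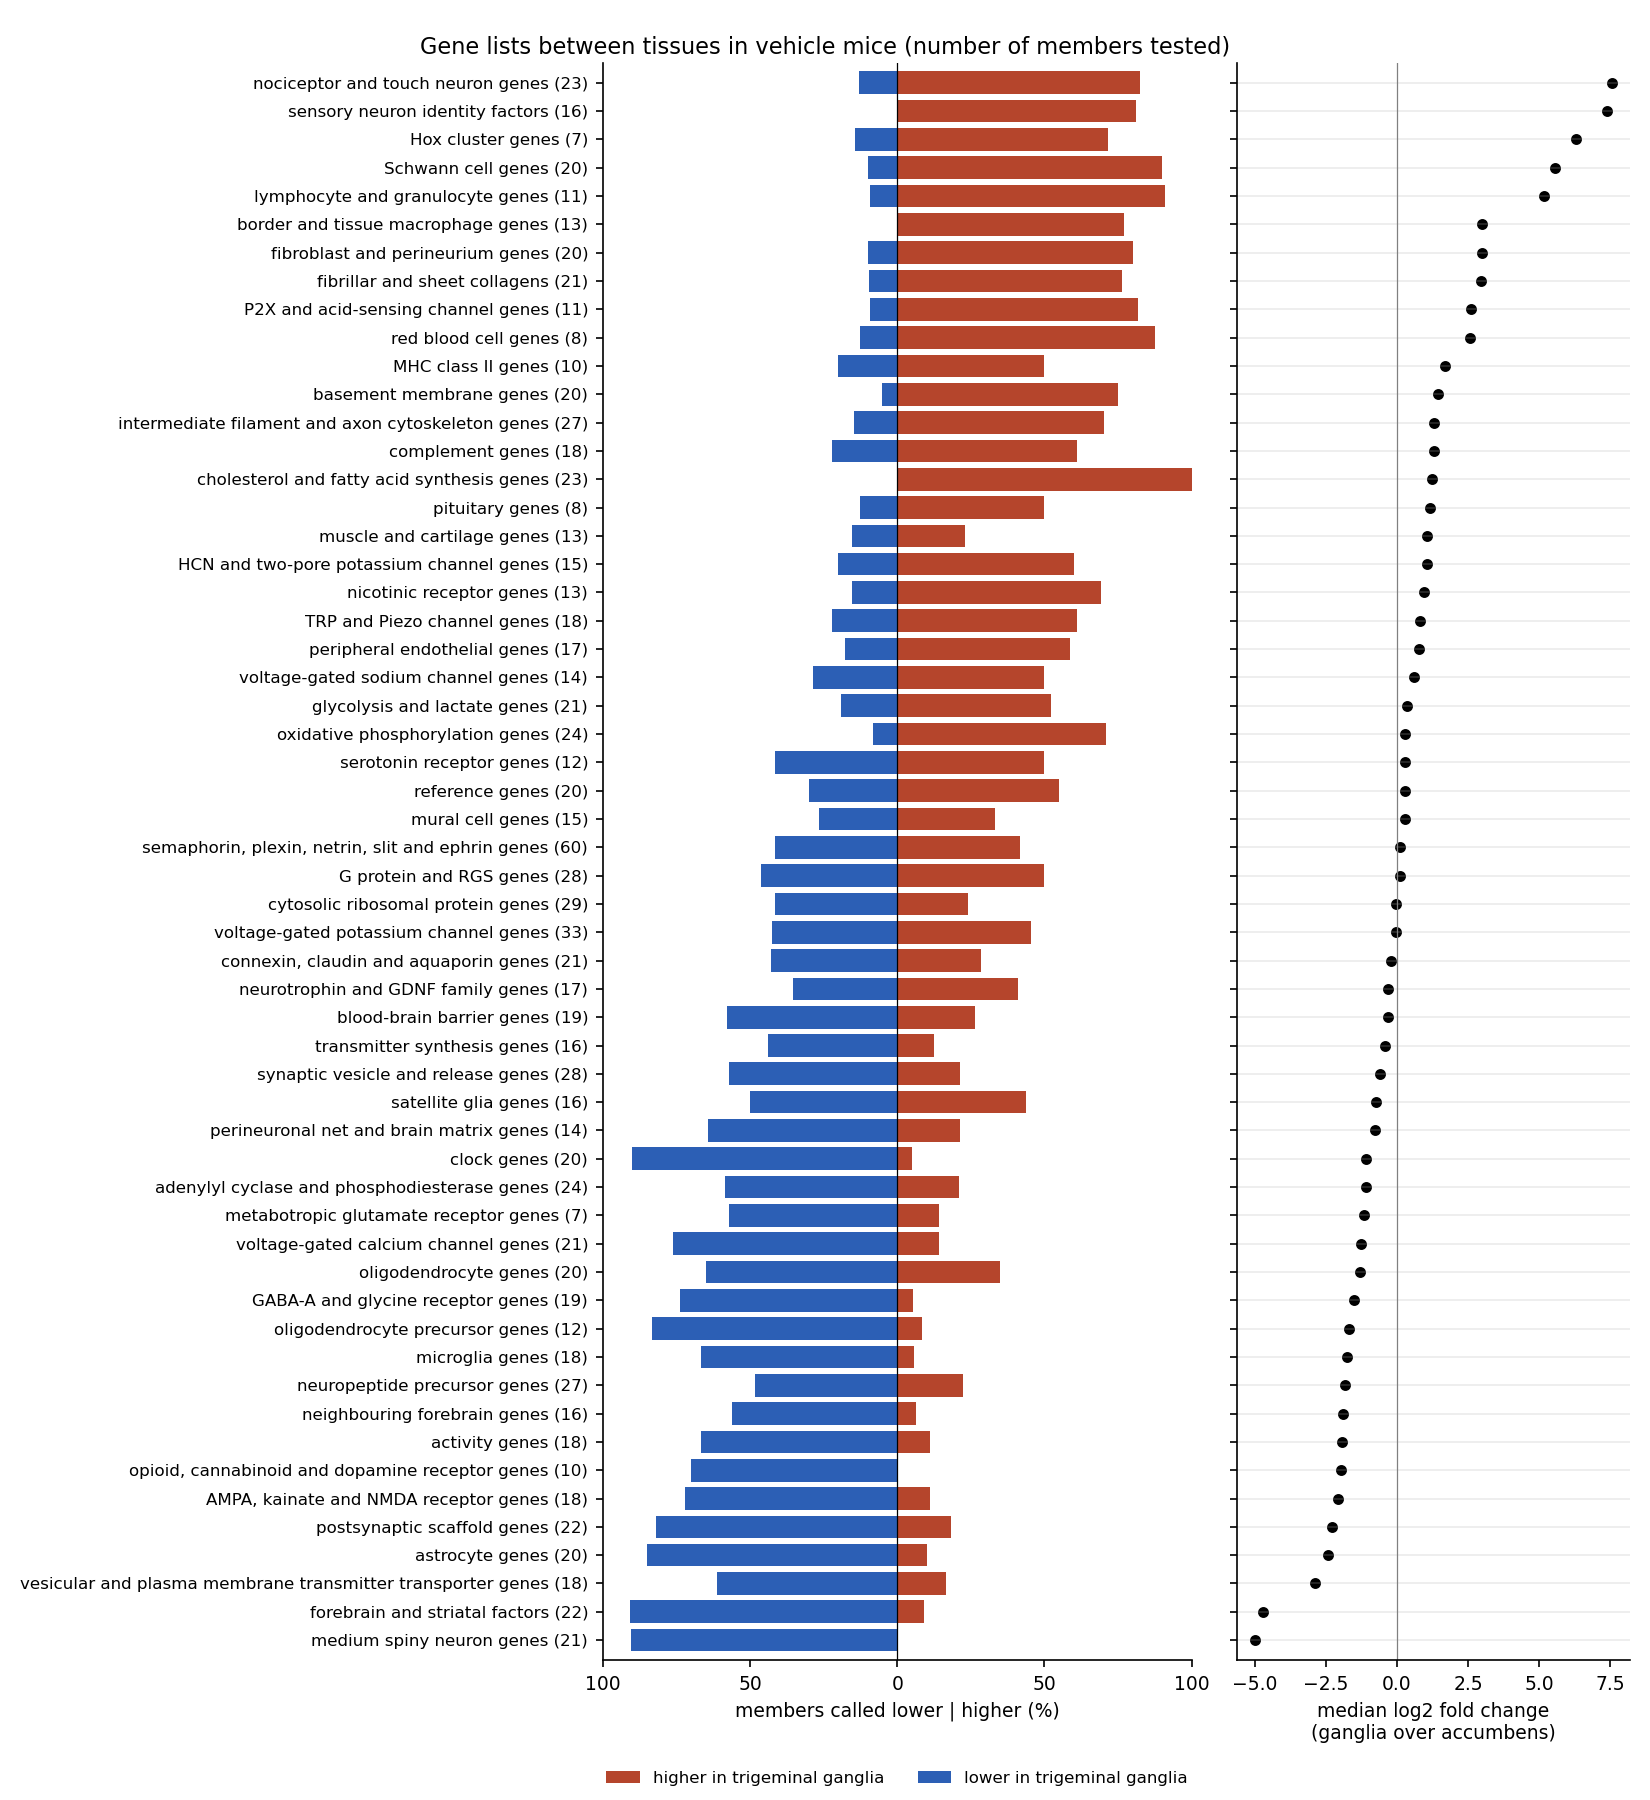
Left, percent of tested members of each gene list called higher (red, to the right) or lower (blue, to the left) in TG in edgeR's test, with the number tested in brackets, and right, the median log2 fold change (TG over NAc) of the list. Over all features 31.6% were higher and 32.3% lower, and lists of fewer than 7 tested members are left out.

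Read per length of transcript, the most abundant RNA differed between the tissues. Among the highest in TG were the imprinted Snurf at 9285 ± 256 TPM and Mbp at 6022 ± 554, and Fth1, Nefm, Apoe, Tuba1a and Nefl followed with 4209 to 4883. In NAc the long non-coding RNA Meg3 led at 8567 ± 1047 TPM, ahead of the predicted gene Gm20594 at 7928 ± 641 and Snurf at 7375 ± 993. Slc1a2 had rank 6 in NAc at 3882 ± 604 against 26.7 ± 6.65 in TG. The rank depends on the length assigned. By the longest transcript Meg3 had rank 21 and Slc1a2 rank 127 in NAc, and Mbp had rank 24 in TG.

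Transcripts of one gene can differ between tissues whether or not the total does. Of 21925 transcripts tested in 7387 genes, 1755 (8.0%) in 1065 genes (14.4%) differed in their share of the gene's counts by at least 20 percentage points at an adjusted p under 0.05 in limma. In 201 of these genes the total was not called, against 5700 of all 19809 named genes tested, which include genes at lower levels. A total that was not called may still differ. Of 58 neural genes listed for their known alternative forms, 53 were tested and 26 had a called transcript. Counts per transcript are estimates in which similar transcripts share reads, and the transcripts compared also differ in the ends of their first and last exons. A share is therefore that of a transcript and not of an exon.

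Coding exons that separate transcripts with unequal shares in the tissues are shown in capitals, with 15 bases of the neighbouring coding exons on each side in lower case. They were chosen as whole exons present in the transcript with the larger share in 1 tissue than in the other and not in its counterpart, in genes known for alternative splicing. For Grin1, Reln and Agap2 these are the leading transcripts of the tissues, while for Mapt the same transcript, without the exons, led in both. Positions and letters are those of GENCODE M21 on GRCm38. The Grin1 exons lie at chr2:25311343-25311405 and chr2:25294438-25294548 (minus strand), that of Reln at chr5:21891562-21891567 (minus) and that of Agap2 at chr10:127090142-127090201 (plus). The Mapt exons lie at chr11:104287123-104287209 and chr11:104289908-104289994 (plus).
Grin1, 63 bases, in the TG transcript: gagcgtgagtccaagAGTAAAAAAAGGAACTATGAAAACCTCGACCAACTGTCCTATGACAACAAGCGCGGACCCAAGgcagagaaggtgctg
Grin1, 111 bases, in the NAc transcript: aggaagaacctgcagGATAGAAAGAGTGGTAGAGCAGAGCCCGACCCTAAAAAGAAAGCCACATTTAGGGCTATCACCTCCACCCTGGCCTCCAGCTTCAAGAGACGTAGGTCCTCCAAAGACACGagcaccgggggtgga
Reln, 6 bases, in the NAc transcript: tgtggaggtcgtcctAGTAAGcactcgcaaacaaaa
Agap2, 60 bases, in the NAc transcript: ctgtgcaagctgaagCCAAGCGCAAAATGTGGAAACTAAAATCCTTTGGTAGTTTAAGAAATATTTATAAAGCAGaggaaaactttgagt
Mapt, 87 bases, in the transcript with a larger share in TG than in NAc: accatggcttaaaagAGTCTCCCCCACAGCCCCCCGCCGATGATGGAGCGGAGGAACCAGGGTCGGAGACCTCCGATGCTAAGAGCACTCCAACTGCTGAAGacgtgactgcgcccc
Mapt, 87 bases, in the transcript with a larger share in TG than in NAc: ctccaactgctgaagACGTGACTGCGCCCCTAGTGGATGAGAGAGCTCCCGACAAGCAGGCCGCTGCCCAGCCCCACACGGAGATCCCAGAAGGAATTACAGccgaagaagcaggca

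The clearest exchange was that of Grin1, the obligatory subunit of NMDA receptors. Transcript NM_001177656, which holds the 63-base exon and lacks the 111-base exon, made up 90.3%, 95.6%, 93.7%, 85.6% and 90.8% in TG and 0%, 2.93e-04%, 0%, 0% and 0% in NAc. The tissues did not overlap, and the adjusted p in limma was 1.40e-06. Transcript NM_008169, with the reverse pattern, made up 3.98e-07% in TG and 89.2% in NAc. The 63-base exon encodes the N1 cassette of the extracellular domain and the 111-base exon the C1 cassette of the cell-internal tail. The gene as a whole was lower in TG, at -1.58 ± 0.09 on the log2 scale.

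Reln encodes a secreted protein that guides neuron position. The transcript with its 6-base exon, which codes for 2 residues near the end of the protein, held 6.996%, 7.57%, 11.1%, 8.25% and 7.83% in TG and 97.6%, 89.6%, 98.5%, 96.7% and 97.1% in NAc. The tissues exchanged almost the whole of the gene's counts, with an adjusted p of 1.44e-04.

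Agap2 encodes a GTPase-activating protein, and the transcript with the 60-base exon held 3.50% to 8.25% in TG and 84.7% to 92.2% in NAc, while 30.2% of its TG counts and 9.48% of its NAc counts were in transcripts without a GENCODE model. Mapt, which encodes tau, had 34.4% of its TG counts and 13.1% of its NAc counts in the transcript with both 87-base exons of the amino-terminal part, at an adjusted p of 0.00286. Without mouse 3 that difference was 19.3 points. Transcript NM_010838, which lacks both exons, led in both tissues at 38.0% in TG and 77.4% in NAc, and a further 25.1% of TG counts and 9.04% of NAc counts were in transcripts without a GENCODE model.

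Other large exchanges were between transcripts with different first exons. Fgf13, an intracellular partner of sodium channels, had 91.3% to 93.0% in TG and 1.52% to 3.88% in NAc in transcript NM_001290415, and the adjusted p was 1.67e-05. Prkg1, the cGMP-dependent kinase, had 88.5% to 94.2% in TG and 0% to 11.4% in NAc in NM_001013833. The potassium channel partners Kcnip3 and Kcnip2 had 88.4% to 93.0% in TG and 0.556% to 1.34% in NAc in NM_001111331 and 92.8% to 96.0% in TG and 7.61% to 16.5% in NAc in NM_001276358. In each of these 4 genes the leading transcripts of the tissues start at different first exons, and no share overlapped between tissues. The NAc transcript of Kcnip2 also holds internal coding exons of 96 and 54 bases that its TG transcript lacks. That of Kcnip3 also holds a coding exon 2 of 166 bases that its TG transcript lacks. Map7d2, Phactr1 and Ciapin1 completed the 10 genes with the largest share differences.

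Gria2 showed a limit of these shares. The transcript NM_001083806, with the flip exon, held 1.81% in TG and 29.6% in NAc, and transcripts with the flop exon held 42.7% and 41.9%. A further 55.5% of the TG counts and 28.5% of the NAc counts were in transcripts with no GENCODE model, so the whole ratio of flip to flop is not given by these values.

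**Figure D5:**
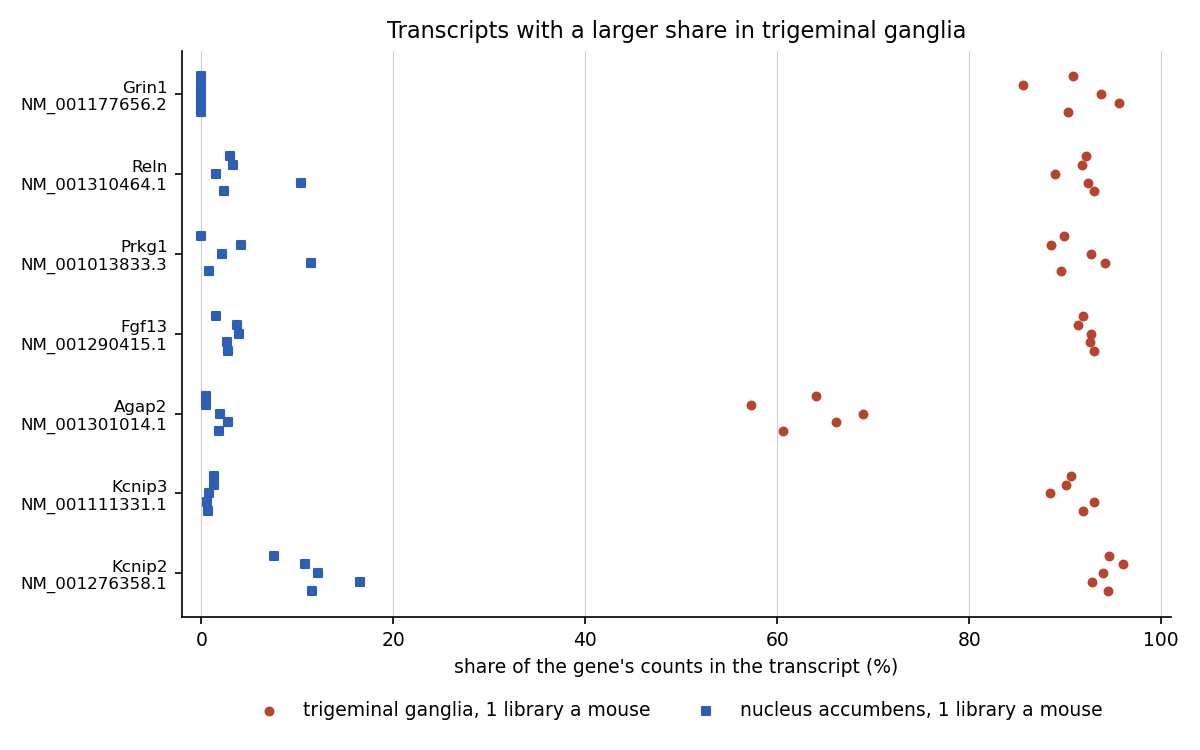
Share of a gene's counts (%) held by the transcript with the larger share in TG for 7 genes, red circles for TG and blue squares for NAc, 1 point for each mouse. The tissues do not overlap in any of the 7 genes, and the shares of Agap2 in TG lie below those of the other genes.

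Within a tissue the mice were alike in TG and less so in NAc. Among named genes with a mean of at least 20 CPM, the median SD was 3.93% of the mean over 7974 genes in TG and 8.33% over 7699 genes in NAc, and it exceeded 50% in 10 and 84 genes. The lowest rank correlation between 2 libraries of a tissue was 0.973 in TG and 0.958 in NAc, and between tissues it ran from 0.816 to 0.843, as a description over genes that share libraries.

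Among the genes with the largest spread were several of neighbouring tissue or high in 1 mouse. In TG, Scd3, a lipid desaturase, stood at 103 CPM in mouse 1 and at 1.18 to 1.54 CPM in the other mice, and Plin2, a coat protein of lipid droplets, was also highest in mouse 1 at 79.8 CPM. Kctd12 was highest in mouse 2 at 131 CPM and Gbp2 in mouse 1 at 55.5 CPM. Herc2 varied over all mice, at 51.5, 77.3, 22.02, 14.5 and 32.3 CPM. Gh, the growth hormone gene of the pituitary, stood at 12.8, 26.7, 15.8, 490.0 and 809 CPM in the TG of mice 1 to 5. It was called higher in TG at 5.27 ± 1.51, and the call was lost without mouse 4 (4.29, adjusted p 0.0658). In NAc, Irs4, Gabrq, Dgkk and Itih3 were highest in mouse 2, at 89.8, 75.7, 75.5 and 159 CPM, and Slc17a7, Nr4a2, Ccn3 and Tbr1 were highest in mouse 3, at 696, 67.1, 93.2 and 85.7 CPM.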

How the data were processed

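RNA went through TRIzol and RNeasy columns, per the labels' protocols, and was made into strand-specific poly(A) libraries with a TruSeq kit and sequenced for 101 cycles. The design text speaks of both ends read and the protocol of 1, and neither assigns a library to its lanes, so no batch term was fitted. The authors deposited expected counts, read counts estimated per RefSeq transcript and not normalised. Per the submitters' processing notes, kallisto 0.43 and mouse build GRCm38 were used.

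Transcripts were summed per gene with RefSeq identifiers of GRCm38.p6. Of 107185 transcripts, 86605 (80.8%) were matched, holding 90.0% of the counts, 156 of them through GENCODE M21 alone. The other 20580 stayed as unnamed features, with 9.06% to 9.11% of counts in TG and 10.8% to 11.2% in NAc. Sums were rounded to whole numbers. Genes whose reads fit unmatched or near-identical transcripts are uncertain. Coordinates are those of GRCm38.p6.

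The 10 vehicle libraries were fitted with edgeR 4.0.16 in R 4.3.3 (filterByExpr, TMM, glmQLFit, glmQLFTest, and glmTreat for the 2-fold null) with the mouse as a block. All tests were 2-sided with Benjamini-Hochberg adjustment over all features. Mice were paired by the labels' mouse codes, and deviations of the 2 libraries of a mouse had correlations of -0.00883 to 0.0271. Libraries of different mice had correlations of -0.0223 to 0.0283, which span that range. The pairing therefore rests on the labels. Transcript shares were tested with limma 3.58.1 on log2 ratios with a pseudocount of 1, over genes with at least 5 CPM and transcripts with a share of at least 5%. The main tests were also run on simulated data. Those for the gene test varied less between replicates than the libraries here and held far fewer changed features. They do not measure its error rates in these data. Levels per length use GENCODE M21 transcript lengths matched by RefSeq identifier and hold 99.3% of named counts. Transcripts with a length of their own held 81.1% of named counts, and the others took a mean length of their gene.

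The comparison, the members and the 57 gene lists were chosen with earlier results of these data known, and lists overlap. For each list the named genes are up to 3 members with the highest and up to 3 with the lowest fold change and any member against the majority, besides the leaders and the families given in full. Other members named, such as Piezo2, Cd74, Per2, Camk2a and Pmp22, were chosen after their values were seen. Between replicates the chi-square per gene was 12.4 to 138, where counting error alone gives about 1, so no library was a copy of another. Alternatives were other scaling, filters, blocks and tools, and leaving out each mouse. Some genes, and sequences of theirs, are not reported here, although the counts of a list include them.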

Additional observations from a re-analysis of the deposited data

Results flagged for a closer look

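A library stood far from the other 4 of its tissue in 7 of 76 groups of values examined, and chance gives about 1 such group in 20. In the TG of mouse 1, muscle markers summed to 127 CPM against a median of 2.04. In the NAc of mouse 2, markers of septum and hypothalamus summed to 33.8 CPM against a median of 11.7. In the TG of mouse 2, microglia markers summed to 7.76 CPM against a median of 5.81.

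Among single genes, Prph stood at 1.29 CPM in the NAc of mouse 5 against a median of 3.60. In the TG of mouse 5, Hpcal4 stood at 4.17 CPM against a median of 2.67 and Otof at 0.437 CPM against 0.189. Drd1 stood at 1.08 CPM in the TG of mouse 4 against a median of 0.715. All of these gene values lie in the tissue where the gene is low, and the calls for the 4 genes held without any 1 mouse.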

How the results depend on the processing

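The number of features called was 19404 and ran from 17195 to 18927 with a mouse left out, of which 8641 to 9420 were higher and 8539 to 9507 lower in TG. Beyond 2-fold it was 7628 and ran from 6506 to 7429 with a mouse left out. Without the block for the mouse, 20360 features were called, 19050 of them shared with the paired fit, and 8048 beyond 2-fold. DESeq2 1.42.0 called 20645 and limma voom 19957, and no feature called in both fits changed direction under any of the 14 alternatives run on gene sums. Tested as single transcripts, 25349 of 56272 were called. With library size alone, 8308 were higher and 11349 lower.

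Among 526 genes named by the rule, 500 to 525 kept their direction and side of the threshold in each alternative. Rpl11, higher by 0.14, stood at -0.0044 with library size alone and was not called without mouse 4 (adjusted p 0.063). Scd3 was not called and had a negative log2 fold change in the paired fit. It reversed direction and was called higher by 2.42 when all 20 libraries were fitted without the mouse block. Transcript shares were called for 1755 transcripts in 1065 genes and for 1826 in 1105 without the mouse block. With curated RefSeq transcripts alone, fewer transcripts entered and 1003 in 546 genes were called, and with a threshold of 10 points 4121 in 2240 genes were. With a mouse left out the count was 1578 to 1705 transcripts in 981 to 1035 genes. At this depth 21 of 28 Hox genes and 10 of 21 lymphocyte and granulocyte genes were too low to be tested.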

Other observations

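The list of muscle and cartilage genes held 13 tested members, of which 3 were higher in TG, 2 were lower and 8 were not called. Among those higher, Ibsp, which encodes a sialoprotein of mineralised bone, stood at 11.1, 10.8, 10.4, 7.64 and 9.25 CPM in TG and 0.0510, 0.121, 0.0921, 0.0152 and 0.0510 CPM in NAc. Every TG library was above every NAc library, with a log2 fold change of 7.27 ± 0.35 and an adjusted p of 2.22e-05 in edgeR's test. Bglap, the osteocalcin gene, averaged 1.70 ± 0.890 CPM in TG and 0.0104 ± 0.0162 in NAc. Ibsp was of the same order in the TG of all 5 mice, which was not so for the pituitary genes. Prl, the prolactin gene, stood at 3.10, 9.16, 4.52, 79.8 and 155 CPM in TG and 0.119, 0.260, 0.737, 0.244 and 0.119 CPM in NAc. With Gh it makes up nearly all of the summed pituitary markers of mice 4 and 5, and it was higher in TG by 6.34 ± 1.29. In NAc, the neighbouring forebrain genes ran from a summed 122 to 984 CPM between mice, against 308 to 340.0 CPM in TG, where Slc17a7 and Calb2 had the highest levels.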
